A study of Mus musculus with 12 samples.

Results

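The Mir30 family was followed across 12 small RNA-seq libraries of mouse embryonic stem cells (ESCs), cultured pluripotent cells that come from the early embryo. The family was taken as the 6 hairpin genes named Mir30a, Mir30b, Mir30c-1, Mir30c-2, Mir30d and Mir30e, out of 32101 annotated features in the table, 1577 of them miRNA genes. All 6 had reads. The libraries held 3 genotypes. There were 6 wild-type (WT) libraries from 3 cultures. Dnmt1 KO (labelled Dnmt1 -/-), which lacks the methyltransferase that copies DNA methylation when DNA is replicated, gave 2 libraries from 1 culture. Dicer/Dnmt1 KO (labelled Dicer/Dnmt1 -/-), which also lacks the ribonuclease that cuts miRNA precursors, gave 4 libraries from 2 cultures. A culture here means the libraries A and B whose titles are otherwise the same. The labels do not say what the numbers and letters stand for. The series describes a mix of biological and technical replicates without naming them, so p-values may measure technical spread only.

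All 12 libraries are labelled E14 and ESC. In the study's methods, ESCs were grown in serum with LIF, with or without feeder cells, deletion was by Cre induced with tamoxifen, and the Dnmt1 loxP/loxP parent line was of C57BL/6 strain, with Dicer lines derived from it by CRISPR. The labels give no day after deletion and no clone for these libraries. The paper describes the WT of its Dicer/Dnmt1 small RNA data as cells without induced deletion, but the labels do not tie these 6 libraries to that line. If they are another line, line and genotype cannot be told apart. WT 2A and 2B are the culture titled E14 2, which is wild type by its genotype label alone.

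miRNAs are cut from hairpin precursors, first in the nucleus by Drosha with Dgcr8 and then in the cytoplasm by Dicer, and are loaded into Argonaute proteins. The bases near the 5′ end, the seed, pair with target mRNAs, so miRNAs with the same seed can act on overlapping sets of targets. The miR-30 family is expressed in many differentiated tissues and is known for roles in kidney and heart, in epithelial cells and in differentiation. In mouse its members lie as neighbours on 3 chromosomes.

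RefSeq mature sequences (GRCm38.p6) were available for 4 of 6 members, Mir30a, Mir30c-1, Mir30c-2 and Mir30e. Mir30b and Mir30d are named only. The 5p sequences are shown because their likeness decides how well reads of the members can be told apart, with the seed (bases 2 to 8 from the 5′ end) in capitals.
miR-30a-5p: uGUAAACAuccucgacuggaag
miR-30e-5p: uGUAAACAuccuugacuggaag
miR-30c-5p (from both Mir30c-1 and Mir30c-2): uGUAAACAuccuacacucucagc
The opposite arms fell into 2 seed groups, one of Mir30a and Mir30e and one of Mir30c-1 and Mir30c-2.
miR-30a-3p: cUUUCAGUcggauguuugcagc
miR-30e-3p: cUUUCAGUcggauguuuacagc
miR-30c-1-3p: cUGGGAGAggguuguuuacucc
miR-30c-2-3p: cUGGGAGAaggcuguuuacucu

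The 3 different 5p sequences shared all of their first 12 bases. Counting positions from 1 at the 5′ end, miR-30a-5p and miR-30e-5p differed by 1 base in 22 (C13U), and their 3p arms also by 1 (G18A). miR-30a-5p and miR-30c-5p differed at 5 of the first 22 positions. Because miR-30c-5p is the same from both of its genes, a 5p read cannot be assigned to Mir30c-1 or Mir30c-2 by its sequence. Placement of reads with several positions is not given in the sources used here, and the table counts whole hairpins, so 5p and 3p reads could not be separated. Among 1679 mature names in the RefSeq table, 4 had this 5p seed. The other one, miR-384-5p, belongs to Mir384, which had 3 reads in all, 2 in WT 1A and 1 in WT 2B.

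In build NCBIM37, Mir30a lies on chromosome 1 at 23279108 to 23279178 (+ strand) and Mir30c-2 at 23298540 to 23298623 (+), 19361 bp apart, and neither overlaps another feature. Mir30b (chromosome 15, 68168977 to 68169072, -) and Mir30d (68172770 to 68172851, -) are 3697 bp apart and also outside other features. Mir30c-1 (chromosome 4, 120442139 to 120442227, -) and Mir30e (120445211 to 120445302, -) are 2983 bp apart in introns of Nfyc, the gene of a subunit of the NF-Y transcription factor, on the same strand. Reads inside these hairpins were counted for Nfyc as well. Nfyc held 1406 reads over the 12 libraries, of which 13 lay outside Mir30c-1 and Mir30e, so its row carries the reads of these members and gives no separate host level.

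Library reads ranged from 8710 in Dicer/Dnmt1 KO 1B to 245184 in WT 1A, and 1 read was worth 115 and 4.08 reads per 1000000 library reads (RPM). A count of 0 allows up to 3 reads, which is 344 RPM in Dicer/Dnmt1 KO 1B, 186 RPM in WT 2A and 122 RPM in Dicer/Dnmt1 KO 1A. Dicer1 reads (at most 3 in a library) were too few to check the genotype. The Mir290 to Mir295 cluster of ESC miRNAs was called lower in Dicer/Dnmt1 KO against WT for 7 of 7 tested hairpins. The ESC marker miRNAs (12 in the table) summed to between 28683 and 93275 RPM in WT, 55926 and 99648 RPM in Dnmt1 KO and between 1221 and 3797 RPM in Dicer/Dnmt1 KO. Most of each sum came from Mir290 to Mir295, and members differed in direction. In Dnmt1 KO, Mir290 and Mir291a lay above all WT libraries. Mir302a lay below them (103 and 55.8 RPM against 310 to 599 RPM), and Mir302c and Mir367 were at 0. The fibroblast list (10 in the table, 8 with reads in each group) summed to between 9858 and 15470 RPM in WT, 41299 and 49151 RPM in Dnmt1 KO and between 12515 and 40755 RPM in Dicer/Dnmt1 KO, with Mir199a-1 at 0 in all 12 libraries. Its members differed. Mir143 had 333 to 1115 RPM in WT, 5319 and 6961 RPM in Dnmt1 KO and 4393 to 14883 RPM in Dicer/Dnmt1 KO. Mir10a had 271 to 1425 RPM in WT, 1936 and 1171 RPM in Dnmt1 KO and 1400 to 6002 RPM in Dicer/Dnmt1 KO. Mir10b had 420 to 4275 RPM in WT, 2098 and 1961 RPM in Dnmt1 KO and 574 to 2396 RPM in Dicer/Dnmt1 KO. Mir21 and Mir22 lay above WT in Dnmt1 KO but overlapped WT in Dicer/Dnmt1 KO. Mir214, Mir145, Mir125b-2 and Mir199a-2 had at most 94.6 RPM in any library. A list of lineage miRNAs of differentiated cells summed to at most 663 RPM in any library. Feeder cells are fibroblasts, and their part in the Mir30 values was not tested. In bulk RNA, fewer cells of a type and less RNA per cell cannot be told apart.

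The summed Mir30 reads were far lower per library read in Dicer/Dnmt1 KO, and similar per miRNA read. The 6 members together reached a WT mean of 4008 ± 1286 RPM (SD, n = 6). For Dnmt1 KO the mean was 6972 ± 812 RPM (SD, n = 2), and for Dicer/Dnmt1 KO it was 727 ± 273 RPM (SD, n = 4). The highest Dicer/Dnmt1 KO library (975 RPM, 2B) lay under the lowest WT library (2354 RPM, 2A). On the log2 scale the ratio of group means was -2.46 for Dicer/Dnmt1 KO against WT and 0.80 for Dnmt1 KO against WT. Of the miRNA reads, WT libraries had 1.01% ± 0.38 from the family (SD, n = 6), Dnmt1 KO libraries 1.09% ± 0.16 (SD, n = 2) and Dicer/Dnmt1 KO libraries 0.831% ± 0.381 (SD, n = 4). These shares overlapped, since WT 2A was lowest of all with 0.339% (Wilson 95% interval 0.247% to 0.465%) and Dicer/Dnmt1 KO 2B reached 1.37% (1.17% to 1.61%). These sums are a description with no test.

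Its make-up was different in the pooled reads of Dicer/Dnmt1 KO, which came mostly from library 2B. In WT, Mir30a, Mir30d and Mir30e carried most of the reads, and Mir30b, Mir30c-1 and Mir30c-2 together gave 196 of 3191 reads. In Dicer/Dnmt1 KO, the last 3 gave 112 of 222, and 95 of these 112 came from 2B. By library, Mir30b and both Mir30c hairpins held between 2.63% and 10.5% of the family in WT, 6.24% and 5.79% in Dnmt1 KO A and B, and 50.0% (1A), 33.3% (1B), 13.0% (2A) and 64.6% (2B) in the Dicer/Dnmt1 KO libraries. All 4 Dicer/Dnmt1 KO shares lay above all 8 others. The 2A share (7 of 54 reads) lay near the highest of WT (10.5%, 3A), and 1B rested on 1 of 3 reads. This grouping of members was made after their values were seen and has no test. The Dicer/Dnmt1 KO shares rest on 18, 3, 54 and 147 family reads.

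**Figure D1:**
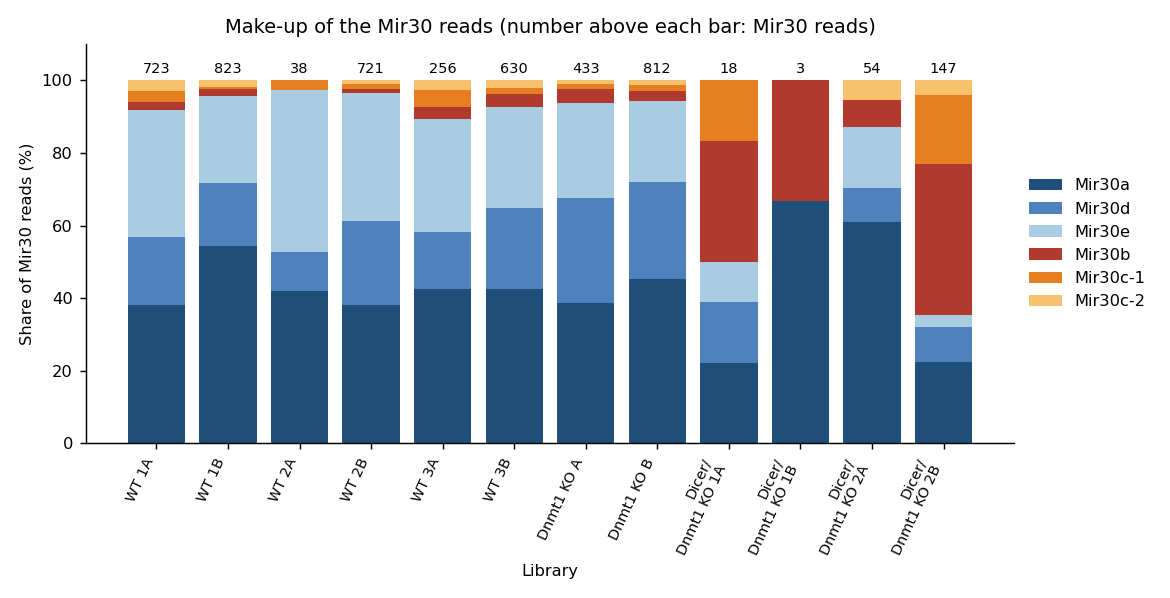
Share of the Mir30 reads (%, y axis) that came from each of the 6 hairpins in each library (x axis), with the number of Mir30 reads above each bar. Mir30a, Mir30d and Mir30e (blue) fill most of the 8 WT and Dnmt1 KO bars, and Mir30b and Mir30c (red and orange) reach 50.0% in Dicer/Dnmt1 KO 1A and 64.6% in 2B.

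Each read covers a whole small RNA of 20 to 24 nt, so levels of the hairpins were compared as reads without division by hairpin length. By mean RPM in WT, Mir30a (rank 21), Mir30e (28) and Mir30d (34) stood far above Mir30b (97), Mir30c-1 (100) and Mir30c-2 (104) among the 308 miRNAs with reads. The ranges of Mir30a and Mir30e overlapped in WT, as did those of Mir30e and Mir30d, and Mir30b, Mir30c-1 and Mir30c-2 overlapped throughout. In Dicer/Dnmt1 KO the order by mean was Mir30a (34), Mir30b (38), Mir30c-1 (62), Mir30d (64), Mir30e (69) and Mir30c-2 (113) of 224, and each member's range overlapped that of the next.

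**Figure D2:**
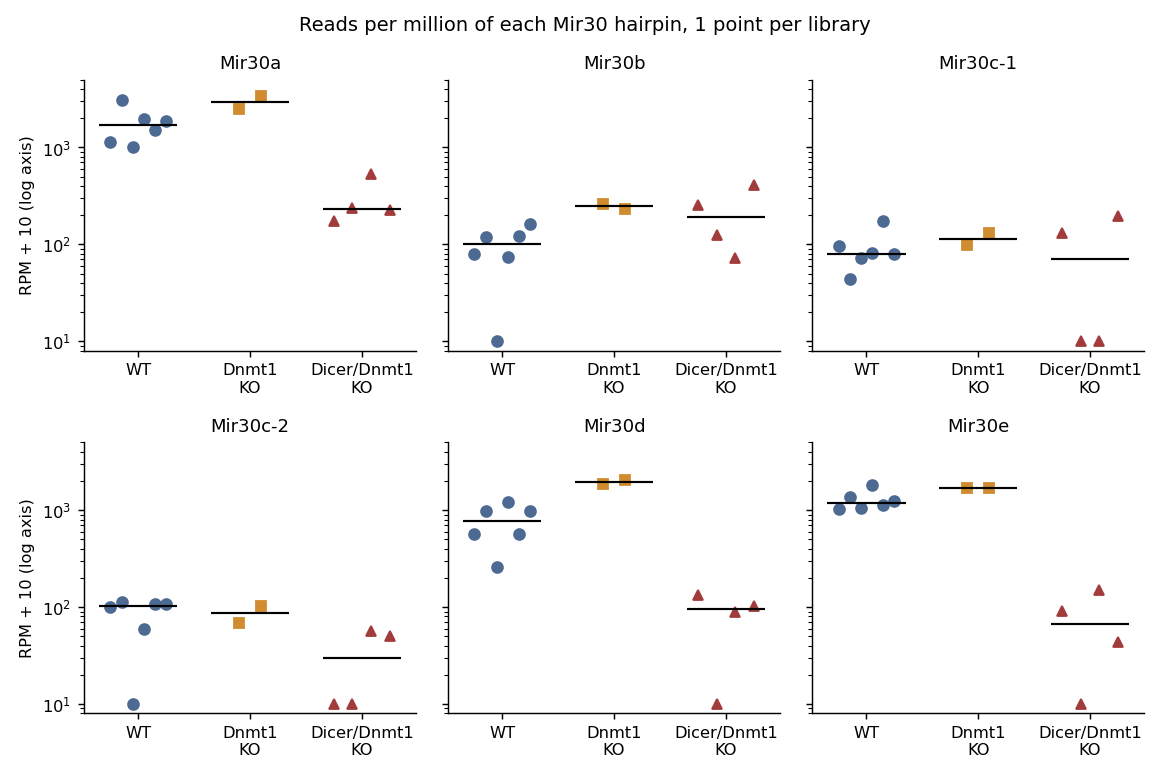
RPM + 10 on a log axis (y) for each Mir30 hairpin by genotype (x), with 1 point per library and a line at the group median. Every Dicer/Dnmt1 KO point lies below every WT point for Mir30a, Mir30d and Mir30e, and the points overlap for Mir30b, Mir30c-1 and Mir30c-2; points at 10 are libraries with 0 reads.

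The comparison of Dicer/Dnmt1 KO with WT shows the members when Dicer is missing too. Of the 5 members that passed the filter on low values, 3 were called lower (Mir30a, Mir30d and Mir30e) and 0 higher in limma at an adjusted p under 0.05. Among all 683 tested features 24.2% were called, 19.0% lower and 5.12% higher. This split depends on the scaling, with 35 features higher and 130 lower here, 84 and 116 with library reads alone, and 437 and 76 with the reads of all miRNAs as library size, which moved the median of all features to 0.61 and 2.63 from -0.09. The RPM of the groups did not overlap for the same 3 members, against 12.9% of tested features lying lower in this way. Of the 135 tested miRNA features, 60.7% were called lower and 12.6% higher, and their non-overlap was not counted. Mir30c-2 did not pass the filter. Fold changes are on the log2(RPM + 10) scale after scaling of the libraries by trimmed means of log ratios (TMM). The added 10 understates changes of low features. TMM factors ran from 1.01 to 1.96 in Dicer/Dnmt1 KO and from 0.42 to 1.11 in WT, and TMM lowered all 5 estimates. With library reads alone, Mir30a, Mir30d and Mir30e stood at -2.62, -3.52 and -4.65, smaller drops that were still called. Mir30b then stood at 1.29 and Mir30c-1 at -1.06, neither called.

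Mir30a had the highest mean of the members in all 3 groups. It had 991 RPM in the lowest, 1686 at the median and 3089 in the highest WT library. In Dicer/Dnmt1 KO it had 163 RPM in 1A, 230 in 1B, 520 in 2A and 219 in 2B. All 4 lay under all 6 WT libraries, and 2A was the highest of them, though only 4 and 2 reads stood behind 1A and 1B. The means were 1756 ± 759 RPM for WT (SD, n = 6) and 283 ± 161 RPM for Dicer/Dnmt1 KO (SD, n = 4). The log2 fold change was -3.45 (SE 0.42, limma adjusted p = 2.17e-05). With the reads of all miRNAs as library size it was -0.43 and no longer called (limma adjusted p = 0.511). After TMM, with A and B of a culture treated as correlated, limma gave an adjusted p of 0.000123. With A and B summed per culture the estimate was -3.32.

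Mir30e, whose 5p arm is 1 base from that of Mir30a, had the lowest estimate of the 5 tested members. Its WT values were 1024 RPM at the lowest, 1166 at the median and 1805 at the highest. The Dicer/Dnmt1 KO libraries had 81.7 RPM (1A), 0 (1B), 142 (2A) and 33.2 (2B). The deepest of these libraries, 2B, had 5 Mir30e reads beside 33 of Mir30a, and the groups were far apart. The log2 fold change was -5.23 (SE 0.57, limma adjusted p = 9.58e-06). Leaving out 1B, whose count was 0, moved it to -4.55. With A and B of a culture treated as correlated, limma gave an adjusted p of 6.31e-05. With A and B summed per culture the estimate was -4.60.

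Mir30d, the neighbour of Mir30b, had 248 RPM in the lowest, 766 at the median and 1191 in the highest WT library. Without Dicer and Dnmt1 it had 122 RPM (1A), 0 (1B), 78.8 (2A) and 92.9 (2B). The groups did not overlap, but the lowest WT value came from 4 reads in WT 2A, and a count of 0 in 1B allows a level above it. The log2 fold change was -4.09 (SE 0.61, limma adjusted p = 0.000126), and it was -3.33 without 1B. Scaled to the reads of all miRNAs it was -1.86 and no longer called (limma adjusted p = 0.0787). After TMM, with A and B of a culture treated as correlated, limma gave an adjusted p of 0.00106. With A and B summed per culture the estimate was -3.55.

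Mir30b was not called in this comparison. It had 0 RPM in the lowest, 89.8 at the median and 153 in the highest WT library. Its Dicer/Dnmt1 KO values were 245 RPM (1A), 115 (1B), 63.1 (2A) and 405 (2B). The 1A and 2B libraries lay above every WT library and the other 2 lay within the WT range, so the groups overlapped. These values stood for 6, 1, 4 and 61 reads, and 2B is the library that carries most of them. The log2 fold change was 0.72 (SE 0.79, 95% interval -0.98 to 2.41, limma adjusted p = 0.627). Without 2B it was 0.15. With the reads of all miRNAs as library size it was called, at 3.18 (limma adjusted p = 0.00197), a value relative to the miRNA pool.

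Mir30c-1 and Mir30c-2 encode the same 5p miRNA and were low in every group. Mir30c-1 had between 34.5 and 166 RPM in WT (median 70.4) against 122 (1A), 0 (1B), 0 (2A) and 186 RPM (2B) for Dicer/Dnmt1 KO, from 3, 0, 0 and 28 reads. Its log2 fold change was -1.47 (SE 0.81, 95% interval -3.22 to 0.27, limma adjusted p = 0.241), and the direction turned to 0.20 with the reads of all miRNAs as library size and to 0.027 with A and B summed. Single libraries moved it as well, to -2.19 without 2B, -0.84 without 1B and -0.82 without 2A. Before TMM the WT mean was 81.5 ± 44.8 RPM (SD, n = 6) and the Dicer/Dnmt1 KO mean 77.1 ± 92.7 RPM (SD, n = 4).

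Mir30c-2 had between 0 and 103 RPM in WT (median 93.4) against 0 (1A), 0 (1B), 47.3 (2A) and 39.8 RPM (2B) for Dicer/Dnmt1 KO. A difference was not detectable at this depth, as both zeros allow up to 122 and 344 RPM. Tested without a filter, it gave -1.78 (limma adjusted p = 0.732). With Mir30c-1 and Mir30c-2 summed as 1 feature, the log2 fold change was -1.77 (SE 0.69, limma adjusted p = 0.0819). How the Mir30c reads divided between the genes differed by library. Mir30c-1 took 59 of 124 Mir30c reads in WT (47.6%, Wilson 95% interval 39.0% to 56.3%, reads pooled) and 28 of 34 in Dicer/Dnmt1 KO 2B (82.4%, 66.5% to 91.7%), against 0 of 3 in 2A and 3 of 3 in 1A.

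**Figure D3:**
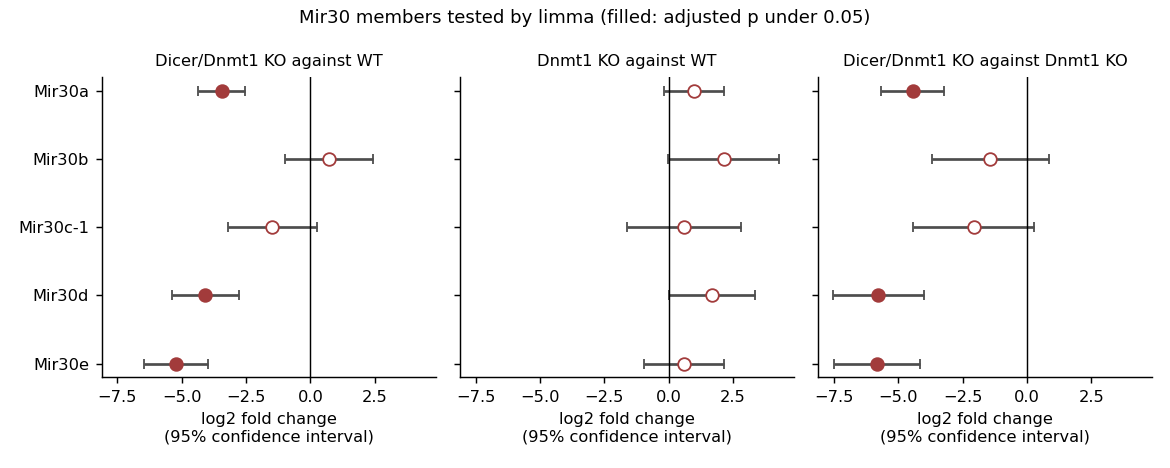
log2 fold change (x axis, log2(RPM + 10) scale) of the 5 tested Mir30 members (y axis) in the 3 comparisons, with 95% confidence intervals from limma; filled points have an adjusted p under 0.05. Mir30a, Mir30d and Mir30e are filled at the left in both comparisons of Dicer/Dnmt1 KO, and 0 points are filled for Dnmt1 KO against WT.

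Neighbouring hairpins were then compared within each library, where the scaling of libraries drops out. Mir30b gave 0%, 5.11%, 10.1%, 11.0%, 13.6% and 16.7% of the Mir30b and Mir30d reads in the 6 WT libraries in rising order, and 12% and 9.96% in Dnmt1 KO A and B. Its Dicer/Dnmt1 KO share was 66.7% in 1A (6 of 9 reads, Wilson 95% interval 35.4% to 87.9%), 100% in 1B (1 read), 44.4% in 2A (4 of 9, 18.9% to 73.3%) and 81.3% in 2B (61 of 75, 71.1% to 88.5%). All 4 lay above the other 8 libraries. The difference from WT was 63.7 percentage points (two-sided exact permutation p = 0.00952, the smallest that 4 against 6 can give, and 0.0857 after Benjamini-Hochberg adjustment over 9 tests, which fails the threshold). The 6 tests with Dnmt1 KO could not reach 0.05. The direction was the same in 4 of 4 libraries and in both cultures, where A and B pooled gave 70.0% and 77.4% against 5.0% to 14.3% in the WT cultures. The comparison was chosen after the Mir30b values were seen, and with cultures as samples 2 against 3 allow no p under 0.20.

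The other neighbours did not give the same picture. Their Mir30c counts depend on how 5p reads were placed between Mir30c-1 and Mir30c-2, which is not known. Mir30c-1 held between 2.48% and 13.0% of the Mir30c-1 and Mir30e reads in WT and 5.04% and 6.70% in Dnmt1 KO. Its Dicer/Dnmt1 KO share was 60.0% in 1A (3 of 5 reads), 0% in 2A (0 of 9) and 84.8% in 2B (28 of 33, Wilson 95% interval 69.1% to 93.3%), and 1B had 0 reads of either. The 1A and 2B libraries lay far above WT and 2A below it. The difference of 42.0 percentage points had a two-sided exact permutation p of 0.167 (adjusted 0.50 over the 9 tests). Without 2B it was 23.7 and without 2A 66.1 percentage points. Mir30c-2 held 4.02% ± 2.67 of the Mir30c-2 and Mir30a reads in WT (SD, n = 6), against 5.93% ± 7.43 for Dicer/Dnmt1 KO (SD, n = 4), with overlapping ranges (exact permutation p = 0.60, adjusted 0.90), and the difference changed from 1.91 to -1.24 percentage points without 2B.

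**Figure D4:**
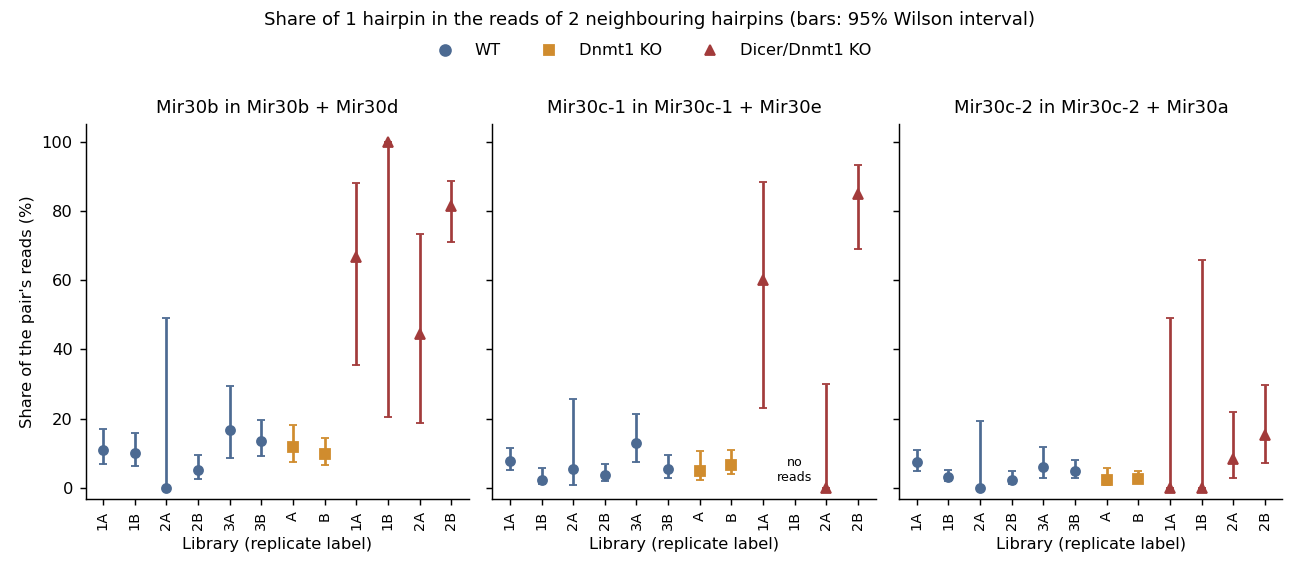
Share (%, y axis) of Mir30b, Mir30c-1 or Mir30c-2 in the reads of that hairpin and its neighbour, by library (x axis, replicate label within genotype), with 95% Wilson intervals that cover counting error only. The 4 Dicer/Dnmt1 KO points for Mir30b lie between 44.4% and 100%, above the 8 others; for Mir30c-1 they are split, and for Mir30c-2 they overlap the rest.

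Dnmt1 KO against WT asks what the loss of Dnmt1 alone went with. Of 5 tested members 0 were called in limma at an adjusted p under 0.05, against 6.88% of all tested features (6.59% higher, 0.293% lower). Of the 135 tested miRNA features, 21.5% were called higher and 0.741% lower. Over all features the split rested on WT culture 2, with 45 higher and 2 lower here, 72 and 16 without WT 2A, and 97 and 84 without E14 2, and 0 members were called in each case. At an unadjusted p under 0.05 there was 1, Mir30d, and voom weights on the recovered reads called the same 1 (1.65, limma adjusted p = 0.0345). All 5 estimates were above 0, at 0.99 for Mir30a (SE 0.54), 2.14 for Mir30b (SE 0.99), 0.59 for Mir30c-1 (SE 1.02), 1.68 for Mir30d (SE 0.77) and 0.59 for Mir30e (SE 0.73). Those of Mir30c-1 and Mir30e turned to -0.13 and -0.19 with the reads of all miRNAs as library size.

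Mir30d had 1847 and 2017 RPM in Dnmt1 KO A and B, and Mir30b had 251 and 223 RPM, in both cases above all 6 WT libraries. Such a separation was seen for 17.1% of tested features. Mir30d reached 28.9% and 26.7% of the family reads, where WT ran from 10.5% to 23.2%. Mir30a (2482 and 3411 RPM), Mir30e (1670 and 1682 RPM), Mir30c-1 (88.7 and 121 RPM) and Mir30c-2 (59.1 and 92.9 RPM) lay within or across the WT range. Both Dnmt1 KO libraries were taken as 1 culture. The Mir30b estimate rested in part on WT 2A, with 0 reads, and was 1.46 without it.

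Dicer/Dnmt1 KO against Dnmt1 KO sets the loss of Dicer on the background without Dnmt1, and it shares the 4 Dicer/Dnmt1 KO libraries with the first comparison. Again 3 of 5 members were called lower and 0 higher, where 22.8% of all tested features were called, 21.7% lower and 1.17% higher (8 features higher and 148 lower, 24 and 127 with library reads alone, and 415 and 60 with the reads of all miRNAs as library size). The RPM ranges were apart for these 3, as for 22.3% of tested features lying lower. Of the 135 tested miRNA features, 74.8% were called lower and 0 higher. Mir30a changed by -4.44 (SE 0.57, limma adjusted p = 4.94e-05), Mir30d by -5.77 (SE 0.81, adjusted p = 0.000106) and Mir30e by -5.82 (SE 0.77, adjusted p = 6.69e-05). Without Dicer/Dnmt1 KO 1B, Mir30d stood at -5.01 and Mir30e at -5.14. With library reads alone, Mir30a, Mir30d and Mir30e stood at -3.45, -5.04 and -5.09. Summing A and B per culture leaves 1 Dnmt1 KO culture and gave -4.34, -4.98 and -5.20. For Mir30b the estimate was -1.42 (SE 1.06, adjusted p = 0.474) and for Mir30c-1 -2.06 (SE 1.09, adjusted p = 0.259). Both had 95% intervals that included 0 (-3.70 to 0.85 and -4.41 to 0.28). Without Dicer/Dnmt1 KO 2B, Mir30c-1 was called lower as well (-3.01, limma adjusted p = 0.041) and Mir30b stood at -2.15. With the reads of all miRNAs as library size both turned, to 0.33 for Mir30c-1 and 2.24 for Mir30b. That scaling also ended the calls of Mir30a (-0.63, limma adjusted p = 0.467) and Mir30d (-2.74, limma adjusted p = 0.0593), which left 1 member called, Mir30e (-2.83, limma adjusted p = 0.0328).

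The tested members were then set beside the other miRNAs. Of 135 tested features listed as miRNAs (the host transcripts Mirg and Mir17hg among them), 82 were called lower and 17 higher in Dicer/Dnmt1 KO against WT, with a median log2 fold change of -2.75. The 5 Mir30 members had a median of -3.45, and all 683 features one of -0.09. Counted from the lowest of the 135 changes, Mir30e ranked 16, Mir30d 42, Mir30a 56, Mir30c-1 90 and Mir30b 108. The 7 hairpins of the Mir290 to Mir295 cluster had a median of -5.44. The 2 tested let-7 features, of a family that marks differentiated cells, were called higher (median 2.75). Of these, 1 was called higher in Dnmt1 KO against WT (median 2.59). In Dicer/Dnmt1 KO against Dnmt1 KO, 0 of them were called (median 0.17). In Dnmt1 KO against WT, the median was 0.99 for the 5 members, 1.40 for all 135 and 0.13 for all features, and 29 of the 135 were called higher. In Dicer/Dnmt1 KO against Dnmt1 KO the medians were -4.44, -4.19 and -0.16, and 101 of the 135 were called lower.

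**Figure D5:**
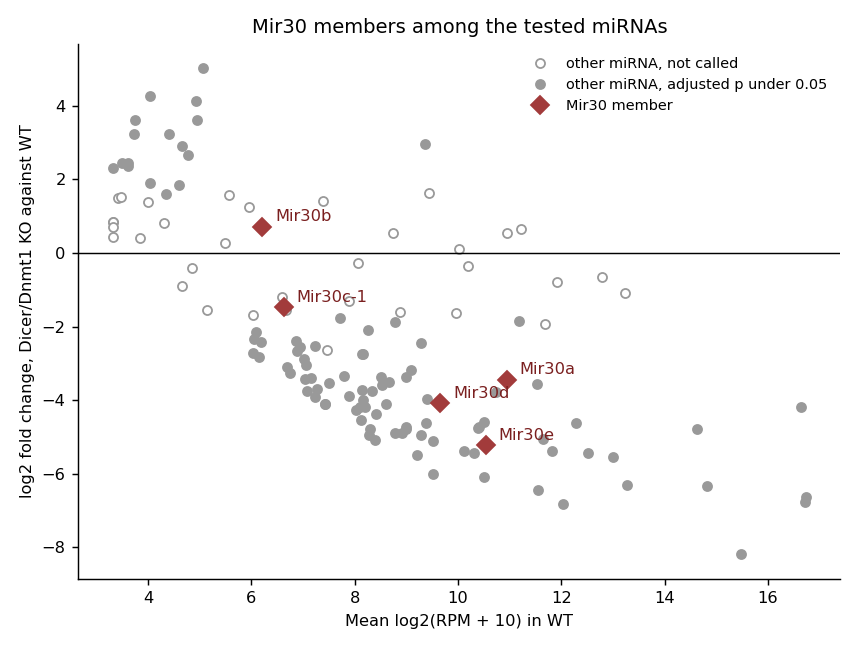
log2 fold change in Dicer/Dnmt1 KO against WT (y axis) by mean log2(RPM + 10) in WT (x axis) for the 135 tested miRNA features, with the 5 tested Mir30 members as labelled diamonds and filled circles for other features at an adjusted p under 0.05. Mir30a, Mir30d and Mir30e lie among the called features below 0, and Mir30b lies at 0.72 above it.

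Across the 12 libraries, the levels of Mir30a, Mir30d and Mir30e ran close together (Pearson r of log2(RPM + 10) between 0.93 and 0.96 for the 3 pairs), while Mir30b and its neighbour Mir30d had r = 0.21. After subtraction of group means, r was 0.76 for Mir30d and Mir30e, 0.58 for Mir30a and Mir30e, 0.43 for Mir30a and Mir30d and also 0.43 for Mir30b and Mir30d. Outside the family, the most similar of 130 tested miRNA features were Mir872 for Mir30a (r = 0.97, 0.75 within groups), Mir181c for Mir30d (0.98, 0.87) and Mir25 for Mir30e (0.99, 0.95). Mir25 is a miRNA of the Mir106b-25 cluster. The next ones were Mir200a and Mir340 for Mir30a, Mir148b and Mir25 for Mir30d, and Mir92b and Mir92-1 for Mir30e, with r between 0.95 and 0.98. Mir30b and Mir30c-1 had no such close match. Their highest r were 0.73 for Mir34a (0.88 within groups), followed by mmu-mir-689-2 and AC154660.1, and 0.77 for AL844840.2 (0.66 within groups), followed by Mir148b and Mir15b. Genotype and depth differ between these libraries and can enter r for any miRNA, so the correlations are descriptions.

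Of the genes that make and load miRNAs, 18 of 23 listed symbols were in the table and 0 passed the filter. Together they gave 192 ± 57.5 RPM for WT (SD, n = 6), 118 ± 21.7 RPM for Dnmt1 KO (SD, n = 2) and 282 ± 74.5 RPM for Dicer/Dnmt1 KO (SD, n = 4), with at most 9 reads of a gene in a library. Fragments of 20 to 24 nt at this depth gave no usable value for Drosha, Dgcr8, Xpo5 or the Argonaute genes.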

How the data were processed

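The authors trimmed the reads (Trim Galore 0.3.5 in the submitters' processing notes), kept 20 to 24 nt, mapped with Bowtie2 2.2.6 to NCBIM37 and counted overlaps with annotated features in SeqMonk. The deposited values were log2 RPM with 0 reads written as 0.9 read. Whole reads came back for 100% of values in the 12 columns (tolerance 0.05 read). A further 89 value columns match none of the 12 samples and were left out. All 32101 features matched the GENCODE annotation of NCBIM37. The 4 RefSeq hairpins were identical to the NCBIM37 sequence at the table's coordinates.

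The study's methods name a count model for miRNAs. As the unit is log2, limma 3.58.1 (R 4.3.3, prior variance following the mean level) was fitted to log2(RPM + 10) after TMM (30% of log ratios and 5% of abundances trimmed), in 1 model of 3 groups without covariates, with Benjamini-Hochberg adjustment at 0.05 over 683 features. These had at least 111 RPM (10 reads at the median depth) in 2 libraries and 15 reads in total. The fit was run on simulated data with independent libraries and similar numbers of raised and lowered features. That run does not cover a one-sided loss of miRNAs or technical replicates. Shares carry 95% Wilson intervals and were compared by exact permutation tests (SciPy 1.17.1). A count of 0 allows up to 3 reads. Intervals and this limit take in counting error alone, as no marking of PCR copies is described. Strand handling is not given in the sources used here.

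All 6 members are described, with the 3 tested miRNA features of highest Pearson r to each tested member over the 12 libraries. The members, gene lists, neighbour pairs and tests were chosen with earlier results of these data known. Libraries A and B of a culture differed by more than sampling noise in 6 of 6 cultures (chi-square of 10.4 to 43.2 per degree of freedom) and were kept as separate samples. This excess cannot show whether A and B are technical or biological replicates. The fit with A and B correlated estimated a correlation of 0.30 within cultures. Alternatives were other scalings, voom, pseudocounts of 1 and 50, no filter, each library left out, E14 2 left out, A and B summed or correlated, and a replicate block.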

Additional observations from a re-analysis of the deposited data

How the results depend on the processing

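Mir30a, Mir30d and Mir30e were called lower in Dicer/Dnmt1 KO against WT and against Dnmt1 KO under every alternative run except one. With the reads of all miRNAs as library size, Mir30a stood at -0.43 and -0.63 and Mir30d at -1.86 and -2.74, no longer called, and Mir30e at -3.02 and -2.83, still called. Members called then numbered 2 (Mir30e lower, Mir30b higher) and 1. That scaling also turned Mir30c-1 to 0.20 and 0.33, Mir30b to 2.24 against Dnmt1 KO, and Mir30c-1 and Mir30e to -0.13 and -0.19 in Dnmt1 KO against WT. It moved the summed Mir30 ratio from -2.46 to -0.28, from 0.80 to 0.11 and from -3.26 to -0.39, and the median of all features from -0.09 to 2.63 in Dicer/Dnmt1 KO against WT. With A and B summed per culture, the Mir30c-1 estimate turned to 0.027 in Dicer/Dnmt1 KO against WT. voom called 1 member in Dnmt1 KO against WT. Leaving out 1 library gave 3 to 3, 0 to 0 and 3 to 4 members called in Dicer/Dnmt1 KO against WT, Dnmt1 KO against WT and Dicer/Dnmt1 KO against Dnmt1 KO, and summed ratios of -2.64 to -2.23, 0.67 to 0.92 and -3.44 to -3.03 (the last alternative chosen after seeing the data). Shares over libraries with at least 100 family reads moved by less than their SD. For Dicer/Dnmt1 KO this left 1 library, 2B, which is part of the mean and SD it was set against, so it shows no stability. There Mir30a went from 43.1% (SD 24.1) to 22.4% of the family and Mir30b from 28.9% (SD 14.8) to 41.5%. The cause of these shifts was not tested.

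Features called in Dnmt1 KO against WT numbered 47, and 80 with voom, 31 with a pseudocount of 1, 181 without E14 2, 88 and 73 without WT 2A or 2B, 22 without either Dnmt1 KO library, 24 with A and B summed and 30 with A and B correlated. With miRNA reads as library size the counts were 513 (from 165), 17 and 475 (from 156), and 85.2% of the 513 were higher against 21.2% of the 165. Library reads alone gave 42.0% higher and moved the median of all features to 0.61, with the same 3 members lower. Equal replicate labels did not pair libraries (r of deviations -0.23, 0.11, -0.17 and -0.28 for 1A, 1B, 2A and 2B). With the replicate block 3 members and 121 features were called, and 3 and 128 in the same 8 libraries without it. In Dicer/Dnmt1 KO, depth limits all members, with between 9 and 72 reads each over the 4 libraries.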
